A study of Caenorhabditis elegans with 2 samples.

Results

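The genes described here encode subunits of SNAPc, the small nuclear RNA activating protein complex, in *Caenorhabditis elegans*. They are *snpc-4*, *snpc-1.1*, *snpc-1.2*, *snpc-1.3*, *snpc-3.1*, *snpc-3.2* and *snpc-3.4*, taken by symbol, and they are 7 of the 19985 protein-coding genes of the WBcel235 annotation. They were selected on measured values of this dataset, the ranks of the FKH-3 ChIP-seq regions with a summit in a gene or within 2 kb of it, and above all on the rank of *snpc-4*. Those ranks are therefore a description, and no test was applied to them. In the list of the pooled replicates, 19 of 30000 regions had a summit at 1 of the 7 genes. Of these, 7 lay inside the gene, 6 of them in a coding exon. Among the 6, 2 were the same *snpc-4* stretch entered under 2 summits. The share of all 30000 regions inside genes or coding exons is not given here, so nothing is read from these counts.

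The study profiled FKH-3, a forkhead transcription factor, by chromatin immunoprecipitation and sequencing in whole young adults of pooled sexes, collected 63 h after their synchronisation as starved L1 larvae. There was 1 group of 2 biological replicates, both from strain OP594 (unc-119(tm4063) III; wgIs594), whose integrated transgene makes FKH-3 with GFP and FLAG at its C terminus. Both samples therefore carry the tagged protein from the transgene and the *unc-119* allele, and a matched control was not analysed here. The labels describe recovery with an anti-GFP antibody after sonication, while their antibody field names FKH-3, and they do not say how the replicates were raised apart.

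Each replicate had a deposited list of 30000 regions, peaks and background together, as did the pooled replicates. The 441 regions of highest score in the pooled list were the deposited set that passed the irreproducible discovery rate (IDR) threshold. IDR compares the order of regions between replicates. The set was the top of the pooled list by score, so membership alone does not show that a region ranked high in both replicates. For example, the region near *tbp-1* ranked 362 in the pooled list and 4553 in replicate 1. A region has a score on a scale the sources do not give, so a rank here is the place of a region by score within its own list, with rank 1 the highest. Read counts were not analysed here, so the depth behind each rank is unknown.

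SNAPc binds the proximal sequence element upstream of small nuclear RNA (snRNA) genes and is needed for their transcription, both of the snRNA genes read by RNA polymerase II and of those read by RNA polymerase III. SNPC-4, the counterpart of human SNAPC4, is the large subunit with Myb-type DNA-binding repeats. In worms it also occupies the piRNA gene clusters of the germline together with PRDE-1, TOFU-4 and TOFU-5. The SNPC-1 proteins are related to human SNAPC1 and the SNPC-3 proteins to human SNAPC3, and SNPC-1.3 is known for its part in male piRNA expression.

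*snpc-4* (WBGene00001568, chromosome I, 8962322 to 8966129, + strand, 3808 bp, 13 exons) stood apart from the rest of each list by the size of its score. In the pooled list its 2 highest entries scored 3317 and 1701, against 582 for the highest entry elsewhere, a 5.70-fold gap from the first. In replicate 1 its 2 highest entries scored 1575 and 802, against 223 for the next, a 7.07-fold gap. In replicate 2 its highest entry scored 1825, against 357 for the next, a 5.11-fold gap. No other entry of any of these lists came between, and the first *snpc-4* score was 28.8 times that of the last region inside the pooled IDR set, which scored 115. Because the scale of the score is not given, these ratios describe the deposited scores and not the amount of binding. The median entry scored 47.5 in the pooled list, 20.9 in replicate 1 and 32.8 in replicate 2. The deposited q-values did not separate *snpc-4* from other strong regions, since 399 pooled entries shared the highest −log10 q-value of 2.06, as did 353 entries of replicate 1 at 2.37 and 407 of replicate 2 at 2.06.

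**Figure D1:**
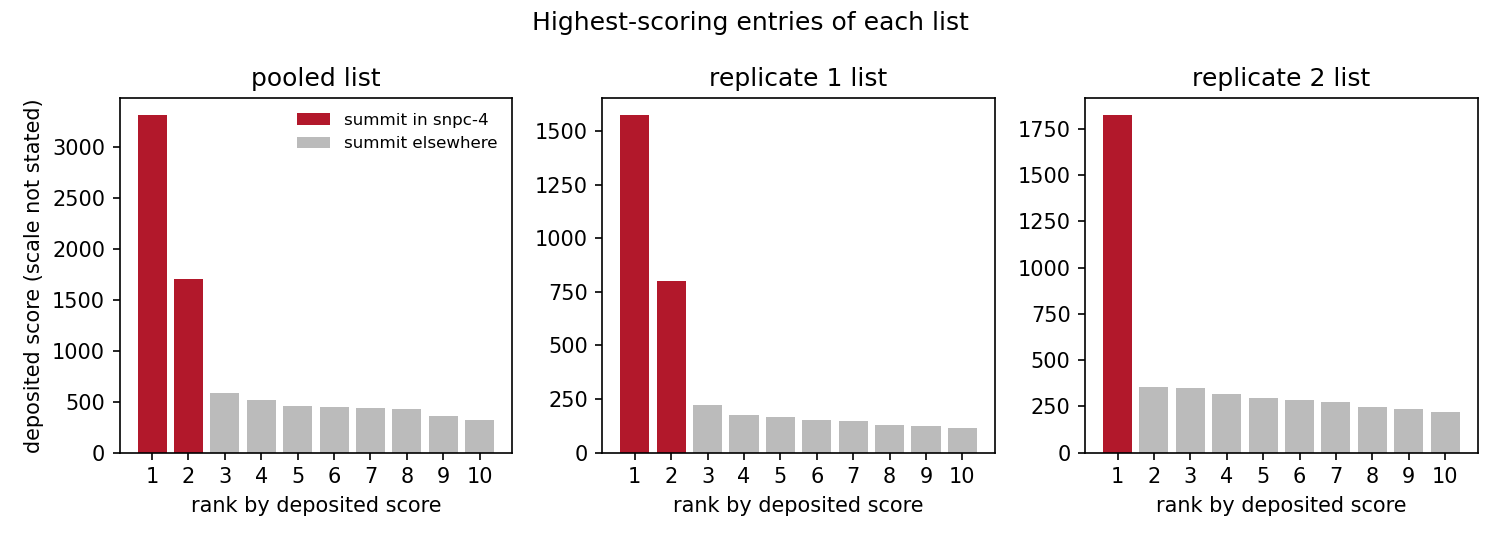
Deposited score (scale not stated, linear axis from 0) of the 10 highest-ranked entries in the pooled list and in each replicate list, with entries whose summit lies in snpc-4 in red and the others in grey. The snpc-4 bars reach 3317, 1575 and 1825, above 582, 223 and 357 for the highest entry elsewhere.

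The *snpc-4* region was also the widest of each list. It spanned 678 bp in the pooled list, 663 bp in replicate 1 and 676 bp in replicate 2, where the commonest width was 390, 364 and 400 bp. With the *snpc-4* entries counted, only 3 pooled entries, 2 entries of replicate 1 and 1 of replicate 2 were wider than the commonest width. In the replicate lists, all of these were *snpc-4* entries. The pair of pooled *snpc-4* entries were the sole entries of that list with the same start and end as each other, and the same held in replicate 1, whereas no 2 entries of replicate 2 shared both ends. One stretch of chromatin was thus entered under 2 summits, 221 bp apart in the pooled list and 223 bp apart in replicate 1.

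The signal lay in the body of the gene. The pooled region began 491 bp and ended 1168 bp from the annotated start, over parts of exons 2, 3 and 4, and 561 of its 678 bp (82.7%) were exonic and 117 bp intronic. Exons made up 80.6% of the whole gene, so the region was about as exonic as the gene that holds it. The first-ranked summit was 913 bp from the gene start in the pooled list, 915 bp in replicate 1 and 913 bp in replicate 2, in exon 3 each time. The second summit, 692 bp from the start in the pooled list and in replicate 1, was in exon 2, 62 bp before its end. The replicates' first summits were 2 bp apart, far closer than the width of a region. No list had a summit in the promoter window of *snpc-4*, set at 500 bp upstream to 100 bp downstream of an annotated transcript start. The coding-exon rank was 1 in the pooled list and in both replicates, with no promoter rank to set beside it.

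**Figure D2:**
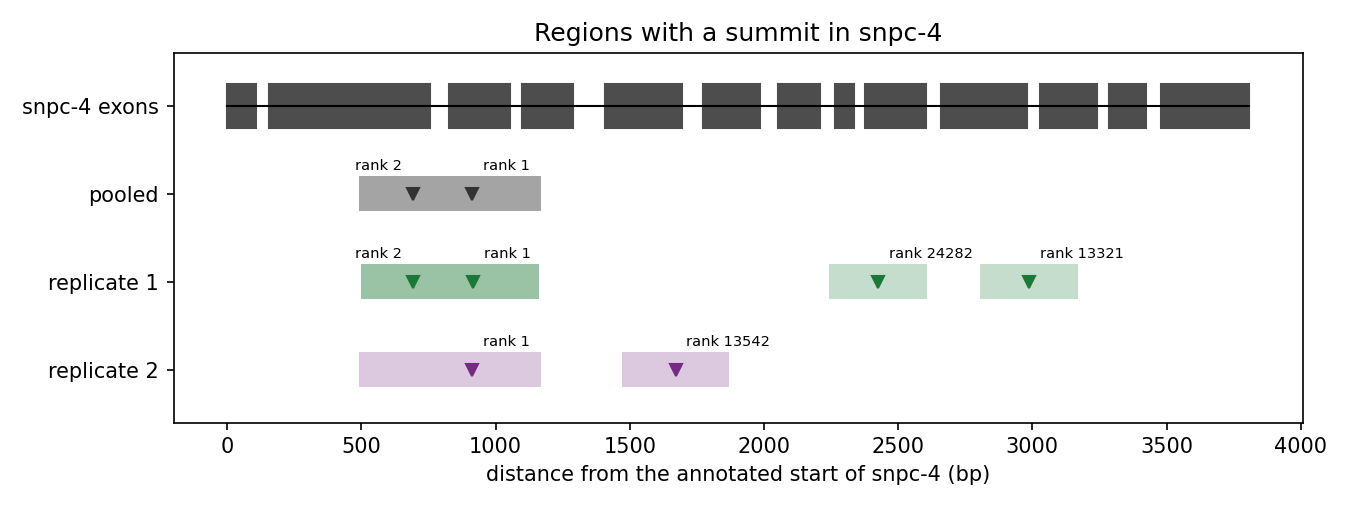
Exons of snpc-4 (dark boxes, joined over both annotated transcripts) and, below them, each region with a summit in the gene in the pooled list and in replicates 1 and 2 (shaded bars, summits as triangles, ranks beside them), by distance from the annotated gene start in bp. The rank 1 summits lie at 913, 915 and 913 bp, and the later summits inside the gene rank 13321 and 24282 in replicate 1 and 13542 in replicate 2.

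A coding-exon summit without a promoter summit was a common arrangement in these lists. In the pooled list, 5081 protein-coding genes had a summit in a coding exon and none in the promoter window, 1877 had the reverse, and 2276 had both, with the coding exon ranked higher in 973 of these. Promoter windows and coding exons differ in length and can overlap, so these counts do not show a preference for either. The IDR set holds only 441 of the 30000 pooled regions, so summits of any class are fewer in it. A coding-exon summit in that set was found at 95 genes (0.475% of all protein-coding genes) and, among the SNAPc genes, at *snpc-4*. Of those 95 genes, 50 (52.6%) also had no pooled summit in their promoter window.

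None of the 36-base words within 100 bp of the *snpc-4* summits recurred elsewhere in the genome on either strand, whereas 30.4% of IDR summits and 11.8% of pooled summits had at least 1 recurring word within 100 bp. GC content within 100 bp was 39.3% at the first summit and 38.3% at the second, against an IDR median of 44.8% (quartiles 40.8 and 49.8%) and a pooled median of 41.3% (quartiles 36.8 and 46.8%). Both summits thus fell below the lower IDR quartile and inside the pooled quartiles. The 4 forkhead words searched, on both strands, were GTAAACA, the form GTAAATA, the form ATAAACA, and last ATAAATA. None of them occurred within 100 bp or within 200 bp of either summit. Within 100 bp, 53 of 441 IDR summits and 13.7% of pooled summits held at least 1 of these words, so most summits lacked them too. The nearest tRNA, snoRNA or snRNA gene to the first summit was a tRNA gene 9994 bp away.

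The other summits at *snpc-4* were outside the IDR set. Downstream, a pooled summit of rank 1360 (score 89.5) lay 721 bp past the gene end in a coding exon of *mdt-31*, a Mediator subunit gene. That pooled rank was ahead of the best at any other SNAPc gene, 3079. The summit ranked 8619 in replicate 1, at 754 bp, and 1365 in replicate 2, at 731 bp. The remaining pooled summit ranked 26549, 1651 bp past the end in *spd-2*, which encodes a centrosome protein. Inside *snpc-4*, replicate 1 had summits of rank 24282 in exon 9 and 13321 in an intron, and replicate 2 had 1 of rank 13542 in exon 5. These 3 had no partner within 100 bp in the other replicate.

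By a rule that compares the best coding-exon rank in the pooled list and both replicates on a log10 scale, the 5 genes nearest to *snpc-4* among 4092 were *dos-3*, *prmt-5*, *glr-2*, *rps-16* and *pigq-1*. *dos-3*, a secreted DOS-motif family gene, ranked 6 pooled, 6 in replicate 1 and 5 in replicate 2, at a log10 distance of 1.304 and with a pooled score of 449. *prmt-5*, which encodes an arginine methyltransferase, ranked 24, 23 and 33, at a distance of 2.463. *glr-2*, a glutamate receptor gene, ranked 40, 76 and 28, and its summit also lay in a noncoding RNA gene and 123 bp from the snRNA-class gene *sls-2.16*. None of these 3 had a pooled promoter summit. For *rps-16* (ribosomal protein; 53, 41 and 83) and *pigq-1* (GPI anchor synthesis; 64, 74 and 57), the coding-exon summit also lay in the gene's own promoter window.

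The 6 other SNAPc genes were far below *snpc-4*. Their best pooled ranks ran from 3079 at *snpc-1.2* to 28328 at *snpc-3.2*, and *snpc-3.1* had no pooled summit, while the median best rank of all protein-coding genes with a pooled summit was 7681.5. *snpc-4* was the 1 SNAPc gene of 7 with an IDR summit in the gene or within 2 kb, as had 3.77% of protein-coding genes. Any pooled summit in that window was found at 6 of the 7 and at 79.5% of protein-coding genes. A summit among the 5000 highest was found at 3, namely *snpc-4*, *snpc-1.2* and *snpc-3.4*, and at 29.2% of protein-coding genes. A pooled summit in a coding exon was found at 4, the same 3 and *snpc-1.3*, and at 36.8% of protein-coding genes. A pooled summit in the promoter window was found at *snpc-1.3* alone and at 20.8% of protein-coding genes. Since the genes were chosen with these ranks known, the shares of all genes are given as a scale and nothing was read from the difference.

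**Figure D3:**
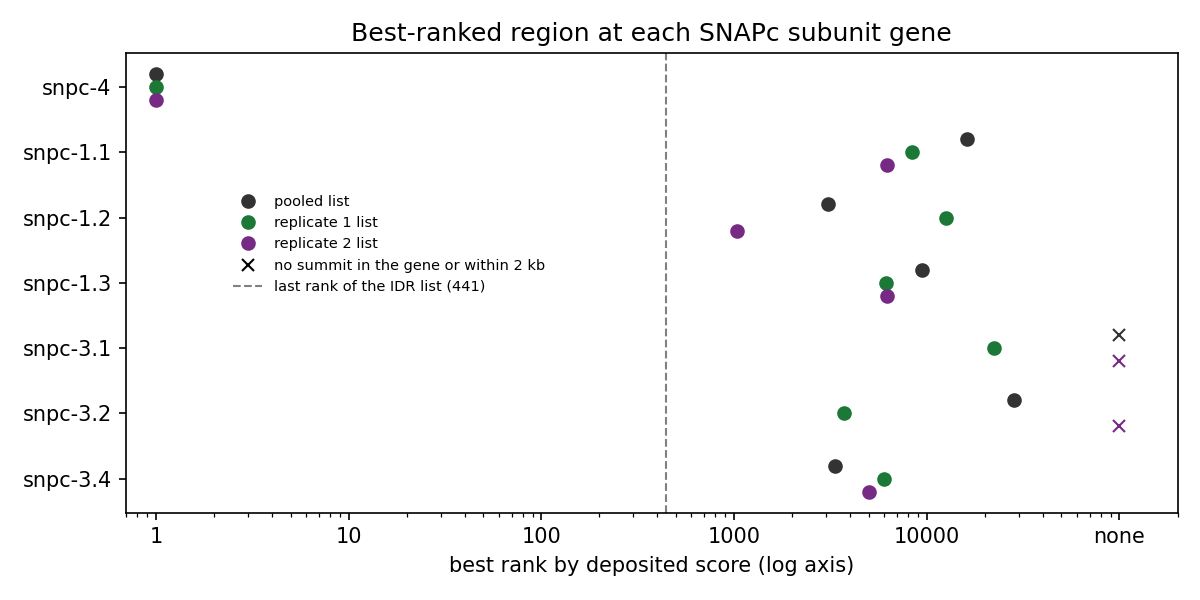
Best rank (log axis, rank 1 at left) of a region with its summit in each SNAPc gene or within 2 kb, in the pooled list and in replicates 1 and 2, with crosses for lists that hold no such summit and a dashed line at the last IDR rank, 441. snpc-4 is at rank 1 in all 3 lists, and every other point lies to the right of the line, from 1033 upward.

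The pooled summits nearest the 2 kb limit lay just inside it at 1784 bp, upstream of *snpc-3.4* (rank 6279), and just outside it at 2050 bp, upstream of *snpc-1.1* (rank 17037). Regions of IDR strength were not found at the 6 other genes except in the 5 kb window, the widest tried, where a region of rank 240 entered, 4587 bp upstream of *snpc-3.4* in a coding exon of *C36E8.4*.

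The highest pooled summit within 2 kb of each of 4 members is shown as reference sequence. These summits ranked from 3079 to 16242 in a list that holds background as well as peaks. The pooled summit at *snpc-3.2*, rank 28328, is not shown. Each stretch runs 50 bp to either side of the summit, from the RefSeq sequence of WBcel235 (ce11), 5′ to 3′ on the + strand, with forkhead words in capitals.
snpc-1.1, chrII:7778498-7778598, + strand: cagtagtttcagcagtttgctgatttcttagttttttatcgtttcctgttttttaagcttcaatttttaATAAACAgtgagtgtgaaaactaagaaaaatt
snpc-1.2, chrIII:13165216-13165316, + strand: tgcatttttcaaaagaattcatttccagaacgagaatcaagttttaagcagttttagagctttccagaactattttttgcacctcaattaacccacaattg
snpc-1.3, chrV:5435408-5435508, + strand: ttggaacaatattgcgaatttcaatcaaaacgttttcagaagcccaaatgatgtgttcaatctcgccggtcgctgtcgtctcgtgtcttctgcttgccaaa
snpc-3.4, chrIII:4018811-4018911, + strand: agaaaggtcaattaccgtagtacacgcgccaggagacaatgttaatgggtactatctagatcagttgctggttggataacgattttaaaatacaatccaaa
The word ATAAACA stands in the *snpc-1.1* stretch, and none of the 4 forkhead words stands in the other 3. The share of all pooled summits with such a word within 50 bp is not given here. Within 100 bp it was 13.7%, so nothing is read from the 1 word. None of these stretches overlaps an annotated UTR.

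At the genes of the SNPC-1 type, the highest-ranked summit of the pooled list lay outside the gene. In single replicates this did not hold throughout, since the best summit of *snpc-1.2* in replicate 1 (rank 12538, exon 4) and that of *snpc-1.3* in replicate 2 (rank 6242, exon 1) lay inside. *snpc-1.2* (WBGene00012715, chromosome III, 13165659 to 13169541, − strand) had its best pooled summit, rank 3079, 393 bp past its 3′ end between genes. Replicate 2 placed the same summit at rank 1033, 1 bp away, whereas the nearest summit of replicate 1 was 216 bp past the gene end at rank 24225. That summit thus rested on replicate 2. Inside the gene, the exon 4 summit ranked 23098 pooled and 12538 in replicate 1, and replicate 2 had no summit in the gene. Upstream, a coding exon of *Y39E4B.5* held summits of rank 5483 pooled, 19631 in replicate 1 and 5683 in replicate 2, the 1 place near *snpc-1.2* where the replicates' summits were within 100 bp of each other.

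*snpc-1.1* (WBGene00015513, chromosome II, 7779297 to 7781301, − strand) had its best pooled summit, rank 16242, 749 bp past its end, with a counterpart of rank 6223 in replicate 2 and none within 100 bp in replicate 1. It lay at -725 bp from the start of *mthf-1*, the methylenetetrahydrofolate reductase gene. The best replicate 1 summit, rank 8398, was 1118 bp upstream in a coding exon of *spdl-1*, a kinetochore protein gene. In the gene itself the pooled list had 1 summit in the 3′ UTR, at rank 28893, and replicate 2 had one in coding exon 9 at rank 11825. A replicate 1 summit of rank 27041 fell in the promoter window, 385 bp before the gene start, where *spdl-1* also has a coding exon.

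*snpc-1.3* (WBGene00017265, chromosome V, 5437084 to 5439168, − strand) was the sole member with a pooled promoter summit. That summit, 73 bp after the gene start in coding exon 1, ranked 15823 pooled and 6242 in replicate 2. In a narrower window, 250 bp upstream to 50 bp downstream, none of the members had one. Replicate 1 had none there, and its own summit inside the gene, rank 21332, lay in an intron 274 bp from the start. An exon 4 summit ranked 14789 pooled and 13348 in replicate 2. The best pooled rank, 9417, belonged to a summit 1626 bp past the gene end in a coding exon of *acl-6*, an acyltransferase gene. Of the 2 summits of replicate 1 and the 3 of replicate 2 at *snpc-1.3*, 0 were within 100 bp of each other.

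**Figure D4:**
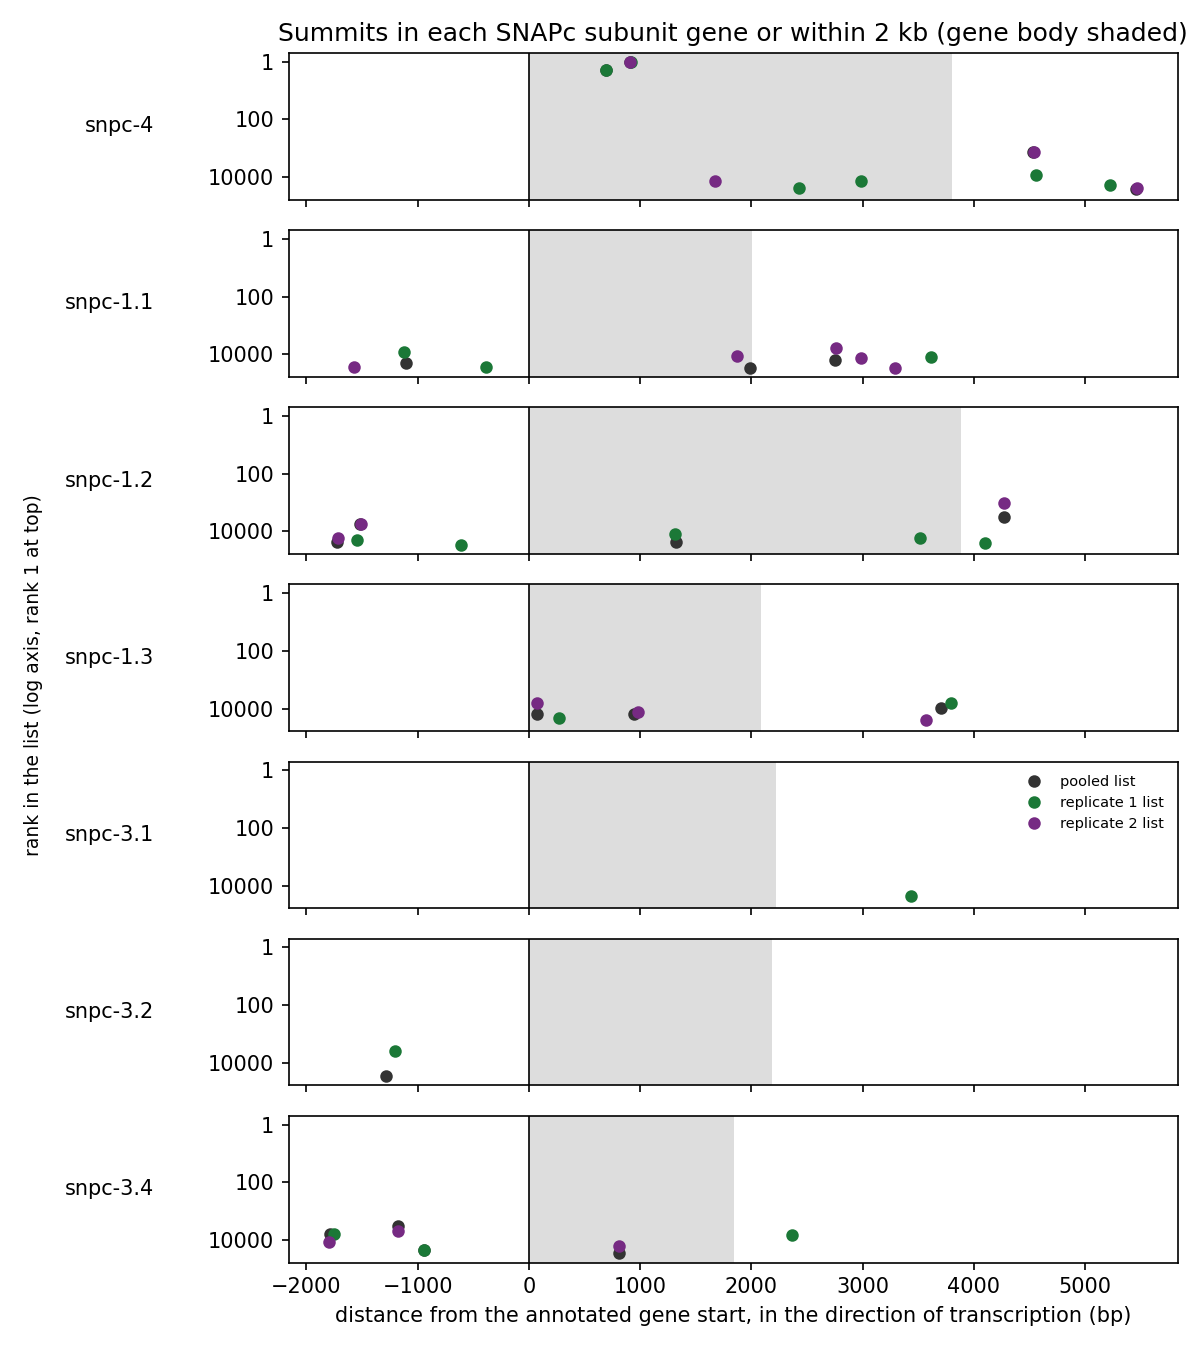
Summits in each SNAPc gene or within 2 kb, by distance from the annotated gene start in the direction of transcription (bp) and by rank (log axis, rank 1 at top), for the pooled list and replicates 1 and 2. Shading marks the gene body. The summits of rank 1 and 2 at snpc-4 lie in the first part of the gene, while the best pooled summits of snpc-1.1, snpc-1.2, snpc-1.3 and snpc-3.4 lie outside the shaded body.

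At *snpc-3.4* (WBGene00011367, chromosome III, 4020037 to 4021883, + strand), the best pooled summit, rank 3356, was 1176 bp upstream between genes. Replicate 2 had it at the same base with rank 4996, and replicate 1 had no summit within 100 bp of it. The best replicate 1 summit, rank 5964, was 1755 bp upstream in the noncoding RNA gene *C36E8.10*, where replicate 2 had rank 11610 and the pooled list 6279. Within the gene, an exon 5 summit ranked 28464 pooled and 15601 in replicate 2. On the other side, a replicate 1 summit of rank 6400 lay 524 bp past the end in a coding exon of *tftc-5*, whose product is a subunit of the RNA polymerase III factor TFIIIC.

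The near-identical pair *snpc-3.1* (WBGene00015098, chromosome IV, 5484039 to 5486258, − strand) and *snpc-3.2* (WBGene00021667, chromosome I, 252107 to 254294, + strand) had no summit inside either gene in any list. *snpc-3.1* had 1 summit in all, rank 22328 in replicate 1, 1217 bp past its end in the promoter window of *T11F8.5* and *T11F8.12*. *snpc-3.2* had a pseudogene summit 1285 bp upstream at pooled rank 28328 and 1207 bp upstream at rank 3702 in replicate 1, and none in replicate 2. Their coding sequences, 1275 bp each, differed at 13 bases (99.0% identical).

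Over much of this pair a word of 36 bases, a length chosen here and not taken from the reads, has no unique place. Of 36-base words, 65.8% recurred elsewhere in the genome for *snpc-3.1* and 67.3% for *snpc-3.2*, against 6.81% for *snpc-1.2*, 2.29% for *snpc-1.3* and 0% for *snpc-4*, *snpc-1.1* and *snpc-3.4*. Across the annotation, a pooled summit lay inside 43 of 767 protein-coding genes with at least 50% recurring words (5.61%), against 10392 of 19195 genes with fewer (54.1%). For a summit in the gene or within 2 kb, the shares were 42.0% and 81.0%. The groups were not matched for gene length. The sources used here do not say how reads with several matches were treated, and the part of recurrence in the lack of summits inside *snpc-3.1* and *snpc-3.2* was not tested. The related pseudogene *snpc-3.3*, named in RefSeq and outside the 7, had 76.6% recurring words and likewise no summit in any list. The related *snpc-1.4* had best ranks of 9413 pooled, 1008 in replicate 1 and 2480 in replicate 2.

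Sharing of summits between the replicates was low over the whole lists, which hold background as well as peaks, the SNAPc genes included. Of the 21 summits of replicate 1 at the 7 genes, 4 had a summit of replicate 2 within 100 bp, and of the 18 of replicate 2, 4 (22.2%) had one of replicate 1, against 28.7% of all regions in either direction. Of the 4 matches, 2 were at *snpc-4*, 1 was at *snpc-1.2* and 1 at *snpc-3.4*. Of the 19 pooled summits, 10 (52.6%) had a replicate 1 summit within 100 bp and 12 (63.2%) a replicate 2 summit, against 50.6% and 66.2% of all pooled regions. These shares were not tested against each other, and the matches at the 6 other genes number 2 of 15 in replicate 1 and 2 of 14 in replicate 2.

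Genes for RNA polymerase III, Integrator, snRNP proteins and the piRNA pathway were looked at through 5 lists. Of their 77 symbols, 68 matched the annotation. In all, 8 of the 68 (11.8%) had an IDR summit in the gene or within 2 kb, against 3.77% of all protein-coding genes, 62 had any pooled summit, against 79.5% of all protein-coding genes, and 28 had a summit among the 5000 highest, against 29.2%. The lists were drawn up with earlier results of these data known, and the counts are descriptive.

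Among the RNA polymerase III genes and factors, 2 of 17 had an IDR summit. *rpc-2*, for the second-largest polymerase III subunit, had one in a coding exon, with rank 302 pooled, 85 in replicate 1 and 817 in replicate 2. *tbp-1*, for the TATA-binding protein, had rank 362 pooled, 4553 in replicate 1 and 295 in replicate 2, and that summit was 1411 bp past its end inside *trd-1*. Among the Integrator genes, whose complex cleaves the 3′ ends of snRNAs, 1 of 11 had one. This was *ints-8* at rank 8 pooled, 8 in replicate 1 and 6 in replicate 2, and the summit lay in an intron that also holds *rpr-1*, the gene of the RNase P RNA.

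Among the Sm and LSm genes, 1 of 16 had an IDR summit, *lsm-7*, in a coding exon with ranks of 287, 233 and 350 in the pooled list, replicate 1 and replicate 2. Of 17 snRNP-specific and spliced-leader RNP genes, 2 had one. *snrp-200*, for the Brr2-type spliceosomal helicase, had it in a coding exon with ranks of 273, 782 and 195. *uaf-2*, for the small U2AF subunit, had it 227 bp past its end in *cyn-13*, with ranks of 422, 875 and 1368. IDR summits in a coding exon of the listed gene, as at *snpc-4*, were thus present at *rpc-2*, *lsm-7* and *snrp-200*, at far lower rank. Of all protein-coding genes, 0.475% had an IDR summit in a coding exon. Other genes of these lists had coding-exon summits outside the IDR set, such as *snr-6* at pooled rank 858.

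The piRNA list matched *prde-1*, *tofu-4*, *tofu-5*, *unc-130*, *prg-1*, *parn-1* and *henn-1*, not all of which encode partners of SNPC-4. Of these 7 genes, 2 had an IDR summit, and neither summit was inside its gene. At *prde-1*, which encodes a nuclear partner of SNPC-4 at piRNA clusters, the summit was 790 bp past the end on a tRNA gene, with ranks of 120 pooled, 191 in replicate 1 and 210 in replicate 2. At *prg-1*, the Piwi Argonaute that carries piRNAs, it was 159 bp past the end inside *D2030.12*, with ranks of 270, 94 and 487. Both lay within other annotated genes.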

How the data were processed

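FKH-3 ChIP-seq regions of 2 biological replicates were analysed from 4 narrowPeak lists on ce11 (1 per replicate, the pooled list and the IDR list); 4 lists on ce10 were not used. The authors deposited, as the narrowPeak columns define them, a region score of unstated scale, the −log10 of a q-value and a summit position. The sources used here do not name the peak caller, the aligner, read filters or depth, so values carry no counting interval. Regions were ranked by score within each list. Summits were placed on Ensembl 115 models of WBcel235, the same assembly as ce11, with Python 3.11.15, numpy 2.4.6 and pandas 2.3.3, and figures drawn with matplotlib 3.10.9. A summit belonged to a gene within 2 kb. Recurrence was the share of 36-base words found more than once in the genome, both strands. Lookups were tested on simulated regions.

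Members, gene lists and settings were chosen with earlier results of these data known. Genes named were the 7 members, list genes with an IDR summit, the 5 genes nearest to *snpc-4* in coding-exon ranks, and neighbours nearer a summit. *snpc-1.4* and *snpc-3.3* were added after their values were seen. Other windows, rankings and single replicates were tried as alternatives.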

Additional observations from a re-analysis of the deposited data

How the results depend on the processing

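*snpc-4* stayed at rank 1 with each replicate alone, ranked by q-value (tied), within 500 bp to 5 kb and by any overlap. The best rank among the 6 other genes, 3079 in the pooled list, was 1033 to 3702 with 1 replicate alone, 240 within 5 kb and 14789 by any overlap with the gene. SNAPc genes with an IDR summit numbered 1, but 2 within 5 kb and 3 with the top 5000 pooled regions. Other SNAPc genes with a promoter summit numbered 1, but 0 in the window of 250 bp upstream to 50 bp downstream and 2 in that of 1000 to 200 bp. Genes of the 5 lists with an IDR summit numbered 8, but 2 in the upper part of the IDR list by score, and 6 to 8 with 1 replicate alone. The causes were not tested. Of 31 alternatives for single genes other than *snpc-4*, 22 moved the rank by at least 1 SD between replicates. Where 1 replicate had no summit, any change counted as a move. Where both had one, that SD ran from 71.4 at *snpc-1.3* to 8140 at *snpc-1.2*. Settings that left a gene with no summit, as at *snpc-3.2*, were not counted, nor was *snpc-3.1*, which had no pooled summit. Ranks of single genes below the IDR set thus depended on these settings, 2 replicates give no error for a rank, and depth is unknown. No paired analysis was possible because both samples belong to 1 group.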
